A study of Rattus norvegicus with 6 samples.

Results

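The nuclear factor I genes *Nfia*, *Nfib*, *Nfic* and *Nfix* and the class III POU genes *Pou3f1*, *Pou3f2*, *Pou3f3* and *Pou3f4* were examined in polyA-selected RNA of rat cortical neural progenitors. The genes were taken by symbol, and all 8 were found, each at 1 locus, among the 17337 gene names of the tables. The cells came from cortices of Sprague Dawley rats of either sex at embryonic day 14, were untreated, and were grown with bFGF and EGF and collected after a second passage. There was 1 condition with 2 biological replicates, A and B, each with 2 libraries (A1, A2, B1 and B2). These were taken as technical libraries from the numbers in their labels, and whether both came from the same RNA was not tested. The 2 Start-seq samples of the series were not analysed here. The mRNA level is given as FPKM, the fragments of a gene scaled to the length of its transcripts and to the depth of the library, and means and SD are over the 2 biological replicates after averaging technical libraries.

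NFI proteins are transcription factors that bind DNA as dimers and recognise a palindrome built from the arm TTGGC. In the developing cortex, *Nfia*, *Nfib* and *Nfix* are known for driving radial glia from self-renewal towards neuronal and then glial differentiation, and *Nfia* for the onset of gliogenesis. POU3F proteins carry a POU-specific domain and a homeodomain and bind octamer-like sites. *Pou3f2* (Brn2) and *Pou3f3* (Brn1) act in part redundantly in cortical progenitors and upper-layer neurons, *Pou3f1* (Oct6) is best known from myelinating Schwann cells and is also made in oligodendrocyte precursors, and *Pou3f4* (Brn4) is known from inner ear and striatal development.

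On rn6 the genes lie on chromosomes 5, 7, 9, 19 and X and differ widely in size. *Nfia* spans 328 kb of chromosome 5 (plus strand, 116421898 to 116750381), and *Nfib* 208 kb of the same chromosome (minus strand, 100439080 to 100647298). *Nfix* covers 92.8 kb of chromosome 19 (minus strand, 25821947 to 25914696), and *Nfic* 25.6 kb of chromosome 7 (plus strand, 11152038 to 11177664). The POU3F genes have no introns, so their spans are those of their annotated transcripts. *Pou3f2* takes up 5904 bp of chromosome 5 (minus strand, 36677453 to 36683356), and *Pou3f1* 2982 bp of chromosome 5 (plus strand, 142643599 to 142646580). *Pou3f3* takes up 3307 bp of chromosome 9 (plus strand, 49478940 to 49482246), and *Pou3f4* 1278 bp of chromosome X (plus strand, 82143789 to 82145066). No other gene of the tables overlapped any of the 8, and the nearest neighbours lay 3.21 kb from *Nfib* (LOC100910558) and 3.87 kb from *Nfix* (*Lyl1*).

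Promoter sequence was available for 6 of the 8 genes from RefSeq on the GRCr8 build, which is not the build of the expression tables, and the 250 bases before the annotated start were searched on both strands. The arm TTGGC was present 4 times in the promoter of *Pou3f4* and 1 time in that of *Pou3f2*, and these letters were not found in the windows of *Nfia*, *Nfib*, *Nfic* and *Nfix*. Of 33469 promoters of the same length, 40.3% held the arm at least 1 time and 0.388% at least 4 times. In *Pou3f4*, 3 of the 4 matches overlapped the letters CCAAT, the CCAAT box. This box was held at least 1 time by 11385 of the promoters and at least 3 times by 845 (2.52%). The octamer ATGCAAAT, held by 1.56% of promoters, and the complete NFI palindrome with its spacer of 5 bases, held by 0.0359%, were in none of the 6 windows, nor was the TATA box TATAAA, held by 12.9%. The window of *Nfix* had a GC content of 86.8%, a value reached by 0.0627% of promoters, that of *Nfib* had 51.2%, which was the median of all promoters, and that of *Pou3f4* had 58.8%. The sequences are shown for *Pou3f4* (chrX:79974558-79974807, plus strand), the window with the most NFI arms, and for *Nfix* (chr19:40260089-40260338, plus strand) and *Nfib* (chr5:102019946-102020195, minus strand), the Nfi windows at the extremes of GC content. They are written 5′ to 3′ with the NFI arm on either strand in capitals.
Pou3f4: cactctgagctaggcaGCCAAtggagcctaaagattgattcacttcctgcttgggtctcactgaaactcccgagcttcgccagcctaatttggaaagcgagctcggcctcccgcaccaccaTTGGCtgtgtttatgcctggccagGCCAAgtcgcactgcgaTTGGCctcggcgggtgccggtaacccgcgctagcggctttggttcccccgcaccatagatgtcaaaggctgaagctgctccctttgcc
Nfix: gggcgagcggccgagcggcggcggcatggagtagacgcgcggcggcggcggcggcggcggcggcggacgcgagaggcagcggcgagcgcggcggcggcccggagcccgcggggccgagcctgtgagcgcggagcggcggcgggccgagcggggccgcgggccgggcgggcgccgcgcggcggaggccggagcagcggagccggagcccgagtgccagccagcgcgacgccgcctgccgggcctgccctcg
Nfib: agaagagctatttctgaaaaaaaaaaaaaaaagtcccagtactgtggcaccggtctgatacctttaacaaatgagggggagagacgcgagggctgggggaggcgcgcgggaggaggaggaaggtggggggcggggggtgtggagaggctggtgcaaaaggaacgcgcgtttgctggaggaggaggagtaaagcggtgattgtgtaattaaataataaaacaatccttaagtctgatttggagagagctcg

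The mean read depth over the members' transcripts, given as coverage in the tables, was lowest for *Pou3f1* in B2 at 24.1 and highest for *Pou3f3* in A1 at 4214. B2 was the shallowest library, with a coverage of 6.83 per FPKM against 22.7 to 24.4 in the others. Neural progenitor markers were present throughout, and all 11 of the 13 listed markers that the tables held had a mean of at least 10 FPKM. Markers of mesenchymal and meningeal cells were also present, with a summed level of 749 to 768 FPKM in the libraries of replicate A and 2745 to 3876 FPKM in those of replicate B, and 13 of the 14 genes met the criteria for a difference between replicates given further on, all higher in B. Markers of microglia summed to at most 2.38 FPKM and those of endothelium to at most 2.37 FPKM in any library, with the microglial *Cx3cr1* listed at 0 in 3 of the 4. The 12 neuronal markers summed to 199 to 258 FPKM, and the 5 choroid plexus markers to 105 and 106 FPKM in A1 and A2, 43.8 in B1 and 3.68 in B2. In RNA from a mixed culture, fewer cells of a type and less RNA per cell cannot be told apart.

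*Pou3f3* was the most abundant of the 8 mRNAs in each library. Its FPKM was 173 and 168 in A1 and A2 and 132 and 114 in B1 and B2, with a mean of 147 ± 33.6 (SD, n = 2). It ranked 694 among all gene names by this mean and between 554 and 922 in the single libraries. Both libraries of replicate B were below both of replicate A, and the lowest value of *Pou3f3* was still above the highest value of any other member.

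*Pou3f2*, the closest functional relative of *Pou3f3* in the cortex, was present at a lower level. It had 57.1 and 51.2 FPKM in A1 and A2 and 32.6 and 26.7 in B1 and B2, a mean of 41.9 ± 17.4 (SD, n = 2). The libraries of the replicates did not overlap, with A 1.83 times as high as B. The ratio of *Pou3f2* to *Pou3f3* within a library was 0.330 and 0.305 in A1 and A2 and 0.247 and 0.234 in B1 and B2, so that *Pou3f2* was the lower gene by at least 3 times in each library.

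*Pou3f4* had 17.4 and 16.4 FPKM in A1 and A2 and 10.2 and 13.0 FPKM in B1 and B2, with a mean of 14.3 ± 3.74 (SD, n = 2) and again no overlap between replicates. *Pou3f1* was the least abundant member, with 3.63 and 3.84 FPKM in A1 and A2 and 8.44 and 3.53 FPKM in B1 and B2 and a mean of 4.86 ± 1.59 (SD, n = 2). Its value in B1 was 2.39 times that in B2, the other library of the same replicate, and the replicates overlapped.

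Among the Nfi genes, *Nfib* had the highest mean. Its FPKM was 60.9 and 59.0 in A1 and A2 and 54.2 and 41.9 in B1 and B2, a mean of 54.0 ± 8.41 (SD, n = 2), and B was lower than A without overlap. *Nfia* had 41.9 and 40.0 FPKM in A1 and A2 and 33.3 and 45.8 FPKM in B1 and B2. The replicate means of *Nfia*, 41.0 in A and 39.5 in B, were the closest of any member, giving 40.2 ± 1.02 (SD, n = 2), although B1 and B2 were the lowest and the highest of its libraries.

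*Nfix* varied more among libraries than *Nfia* or *Nfib*. It had 28.8 and 16.0 FPKM in A1 and A2 and 24.9 and 46.5 FPKM in B1 and B2, with a mean of 29.1 ± 9.39 (SD, n = 2), and the replicates overlapped. *Nfic*, best known from tooth root development, was the lowest of its family. It had 4.99 and 4.37 FPKM in A1 and A2 and 8.92 and 16.98 in B1 and B2, a mean of 8.82 ± 5.85 (SD, n = 2). Both libraries of B were above both of A.

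**Figure D1:**
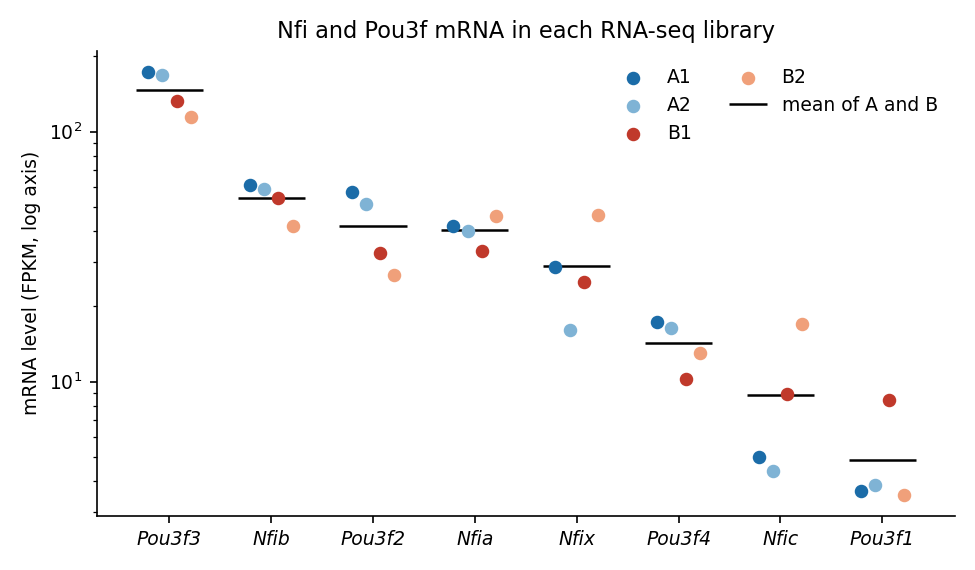
FPKM of each gene (log axis) in the 4 RNA-seq libraries, ordered by the mean of the 2 biological replicates, which the black line marks. *Pou3f3* lies between 114 and 173 FPKM in all libraries, *Nfix* and *Nfic* have their highest point in B2, and *Pou3f1* has its highest point in B1.

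In the order of mean levels, *Pou3f3* was followed by *Nfib*, *Pou3f2*, *Nfia*, *Nfix*, *Pou3f4*, *Nfic* and *Pou3f1*. Neighbours were counted as apart where their libraries did not overlap and their means differed by more than the larger of their SD. This held for 1 of the 7 neighbouring pairs, *Pou3f3* and *Nfib*, with 2.72 times between the means. *Pou3f2* and *Nfia* differed by 1.65 FPKM, less than the SD of 17.4, and *Pou3f2* was the higher in 2 of 4 libraries. *Nfix* was above *Pou3f4* in 3 of 4 libraries, and *Nfib* above *Pou3f2* in 4 of 4, but these pairs overlapped across libraries. Without B2, 3 pairs were apart, the added ones being *Nfia* above *Nfix* and *Pou3f4* above *Nfic*. There were 6 members with a mean of at least 10 FPKM, a level reached by 38.3% of all gene names, and the other two, *Nfic* and *Pou3f1*, ranked 6956 and 8207.

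The makeup of each family was then compared within libraries, where depth and scaling cancel. *Pou3f3* gave 68.9% and 70.1% of the summed Pou3f FPKM in A1 and A2 and 72.0% and 72.5% in B1 and B2, a mean of 70.9% ± 1.95 (SD, n = 2). *Pou3f4* held 6.90% ± 0.0235 by replicate means, but its share ranged from 5.57% in B1 to 8.27% in B2, so the small SD understates its spread. The Pou3f family thus had the same leading gene and the same second gene, *Pou3f2*, in each library.

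The Nfi family was less even. *Nfib* gave 44.6%, 49.4% and 44.7% of the summed Nfi FPKM in A1, A2 and B1 and 27.7% in B2, a mean of 41.6% ± 7.63 (SD, n = 2). *Nfia* held 30.7% and 33.5% in A1 and A2 and 27.4% and 30.3% in B1 and B2. *Nfix* ranged from 13.4% in A2 to 30.8% in B2, where it exceeded *Nfia* and *Nfib*. *Nfic* held 3.65% and 3.66% in A1 and A2, 7.36% in B1 and 11.2% in B2.

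Summed over the family, Nfi mRNA was 137 and 119 FPKM in A1 and A2 and 121 and 151 FPKM in B1 and B2, so the replicates overlapped. Summed Pou3f mRNA was 251 and 239 FPKM in A1 and A2 and 183 and 157 FPKM in B1 and B2, without overlap. Markers of neural progenitors and of neurons were also lower in B by their medians, with B minus A differences of -0.40 and -0.45 on the log2(FPKM + 1) scale against -0.03 over all names, taken over the 11 and 8 markers with a mean of at least 1 FPKM. Of all listed markers in the tables, 7 of 11 and 7 of 12 were lower in both libraries of B than in both of A, some neuronal markers being under 1 FPKM. Of all names at 1 FPKM or more, 60.1% did not overlap, but this share counts both directions. The share of names lower in B was not counted, so whether these marker counts are usual was not tested. By the criteria for replicates given further on, 2 progenitor markers (*Hes5* and *Fabp7*) and 0 neuronal markers were counted as differing. *Hes5*, a Notch target, had 397, 400, 197 and 162 FPKM in A1, A2, B1 and B2, and the part of progenitor or neuron content in the Pou3f values was not tested. The ratio of Nfi to Pou3f was 0.544 and 0.499 in A1 and A2 and 0.662 and 0.962 in B1 and B2, with a mean of 0.667 ± 0.205 (SD, n = 2). Pou3f mRNA was the more abundant in every library, and by the least margin in B2. With *Nfia* and *Nfib* alone set against the Pou3f sum the ratio was 0.409 and 0.414 in A1 and A2 and 0.477 and 0.558 in B1 and B2, again higher in both libraries of B.

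**Figure D2:**
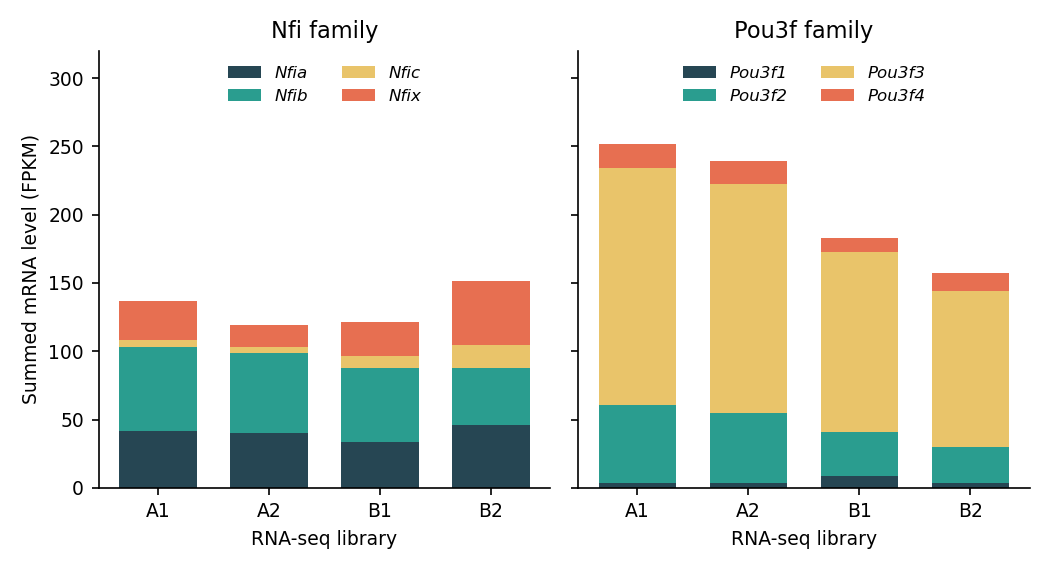
Summed FPKM of the Nfi genes (left) and the Pou3f genes (right) in each RNA-seq library, with each gene as a segment of the bar. Pou3f sums range from 251 FPKM in A1 to 157 FPKM in B2 with *Pou3f3* as the main segment throughout, while in B2 the *Nfix* segment (46.5 FPKM) is larger than that of *Nfib* (41.9 FPKM).

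Replicates A and B are cultures of the same condition, so the difference between them describes the spread of these cultures and no test was made. A gene was counted as differing if its mean reached 1 FPKM, its replicates were 1 or more apart in mean log2(FPKM + 1), and the libraries of A and B did not overlap. The added 1 shrinks the differences of genes with low FPKM. By these criteria 6.15% of 10481 gene names differed, 4.58% being higher in B and 1.57% higher in A. Of the 8 members 1 was counted, *Nfic*, which was higher in B by 1.24. It was not counted without B2, when the difference was 0.81, so this count rests on 1 technical library. Whatever the size of the difference, A and B did not overlap for 5 of the 8 members, and for 60.1% of the 10481 names, so this share was near that of all genes.

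The remaining differences of B minus A on the log2(FPKM + 1) scale were -0.85 for *Pou3f2*, -0.51 for *Pou3f4*, -0.47 for *Pou3f3* and -0.32 for *Nfib*, all without overlap between replicates. They were 0.64 for *Nfix*, 0.47 for *Pou3f1* and -0.07 for *Nfia*, with overlap. Without B2 the difference was 0.20 for *Nfix*, -0.14 for *Nfib*, -0.29 for *Nfia* and 0.99 for *Pou3f1*. The median over the members was -0.20 and that over the 10481 names -0.03. The sign of each of the 8 differences was the same with a pseudocount of 0.1, with TPM, with scaled libraries and without B2.

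**Figure D3:**
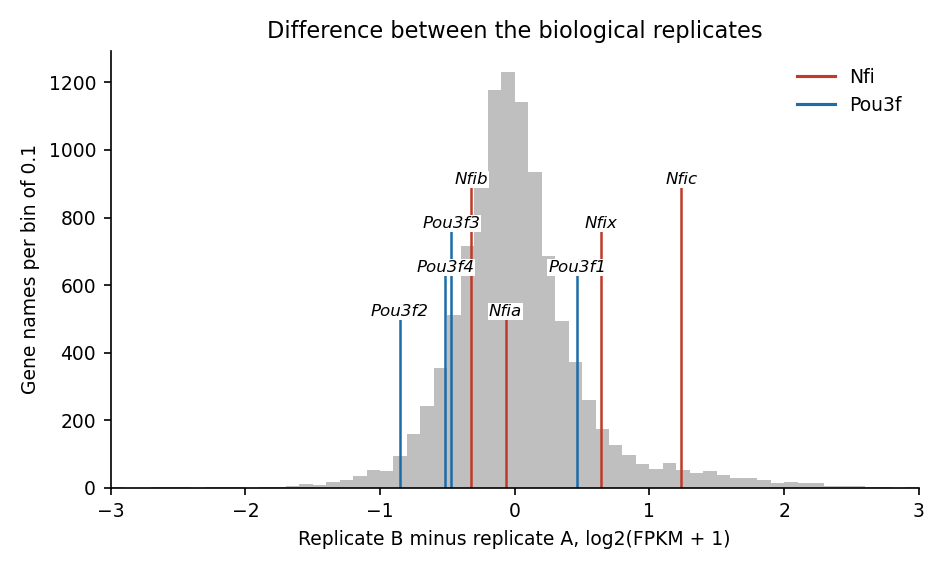
Number of gene names (bins of 0.1) by the difference of replicate B minus replicate A in mean log2(FPKM + 1), for the 10481 names with a mean of at least 1 FPKM, of which 6 lie outside the plotted range. Lines of arbitrary height mark the members, from -0.85 for *Pou3f2* to 1.24 for *Nfic*.

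Libraries of 1 replicate, taken as technical, were compared over the 6636 names with a mean of at least 10 FPKM. The members' spread within a replicate was thus set against that of other genes. Some cell-type markers differed widely between B1 and B2, with *Ptgds* at 8.18 and 292 FPKM, *Aldh1a2* at 71.2 and 369 and *Otx2* at 16.8 and 0. Others differed little, such as *Dcn* at 207 and 217 FPKM. Whether cell content differed between B1 and B2 was not tested. Between A1 and A2, 7 members lay within 0.16 of each other on the log2(FPKM + 1) scale, where the median absolute difference of all names was 0.12. *Nfix* was the exception with a difference of A2 minus A1 of -0.81, which 22 of the 6636 names (0.332%) reached, *Nfix* included. Between B1 and B2 the median of all names was 0.20. There *Nfix* had a difference of B2 minus B1 of 0.87, a size reached by 3.44% of names. *Pou3f1* and *Nfic* have means under 10 FPKM and were set against the 3845 names with a mean from 1 to 10 FPKM, a reference chosen after their values were seen, for which the median between B1 and B2 was 0.27. The difference of *Pou3f1* was -1.06, a size reached by 3.30% of these names, and that of *Nfic* was 0.86, reached by 6.58%.

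In both technical pairs at once, 13 of the 6636 names differed by at least as much as *Nfix*, *Nfix* included. With it, 6 of the 13 were higher in A1 than in A2 and higher in B2 than in B1. The others were *Rn18s*, *Rn45s*, LOC102723236, LOC257642 and LOC310926, named after their values were seen. LOC257642 had 455, 92.1, 211 and 688 FPKM in A1, A2, B1 and B2. Of the 13, 3 were ribosomal RNA genes, whose RNA lacks a polyA tail, and these did not move together. *Rn18s* had 689 and 169 FPKM in A1 and A2 and 351 and 818 FPKM in B1 and B2, and *Rn45s* had 74.6, 26.3, 47.3 and 177 FPKM in the same libraries, the order of libraries seen for *Nfix*. *Rn5-8s* had 311, 60.0, 194 and 72.4 FPKM and was thus lower in B2 than in B1, opposite to *Nfix*. The order of *Nfix* was therefore found for 2 of the 3 ribosomal RNA genes and for the LOC names given above. The part of carried-over RNA without a polyA tail in the *Nfix* values was not tested.

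**Figure D4:**
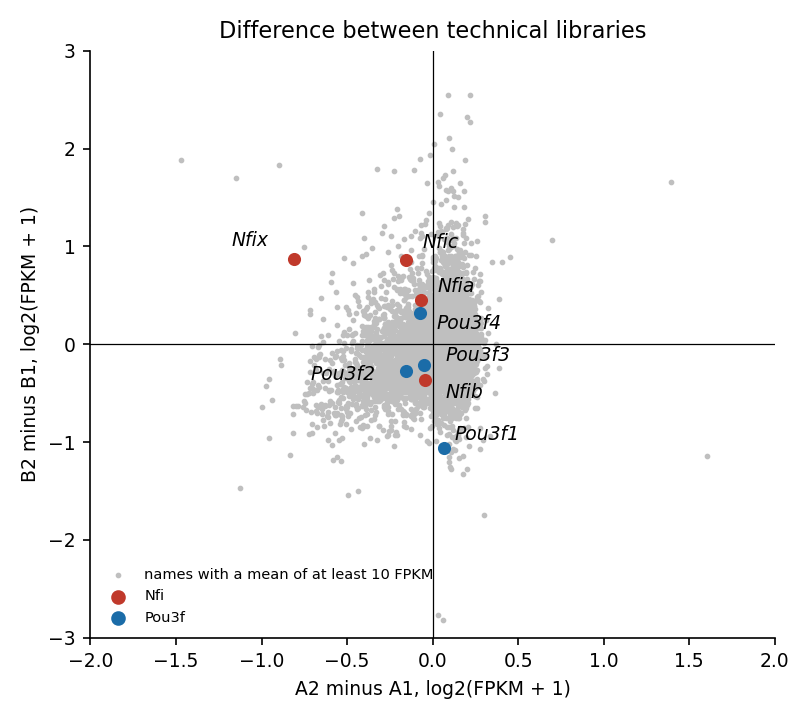
Difference of A2 minus A1 (x axis) against B2 minus B1 (y axis), both in log2(FPKM + 1), for names with a mean of at least 10 FPKM (grey, 13 outside the plotted range) and for the Nfi (red) and Pou3f (blue) genes. *Nfix* lies at -0.81 on the x axis, a size reached by 22 of the 6636 names, *Nfix* included. *Pou3f1*, whose mean is under 10 FPKM unlike that of the grey points, lies at -1.06 on the y axis.

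Markers of other cell types moved with some of the members. The summed level of the 14 mesenchymal and meningeal markers was 768, 749, 2745 and 3876 FPKM in A1, A2, B1 and B2, 14 of the 14 were higher in both libraries of B than in both of A, and 12 were higher in B2 than in B1. *Col3a1*, a fibrillar collagen and the marker with the highest mean, had 207, 200, 694 and 841 FPKM in A1, A2, B1 and B2. *Nfic* had the same pattern of low values in A, an intermediate value in B1 and the highest in B2. *Nfix* was also highest in B2 but not higher in B1 than in A1. *Nfic* and *Nfix* are known to be made in many tissues outside the brain, and the part of mesenchymal cells in their values was not tested.

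The 8 markers of the oligodendrocyte lineage summed to 266 and 291 FPKM in A1 and A2 and 704 and 361 FPKM in B1 and B2. *Olig1*, the most abundant of them, had 172, 195, 523 and 237 FPKM in the same libraries, and all 8 markers were lower in B2 than in B1. *Pou3f1* likewise had its highest value in B1, at 8.44 FPKM against 3.53 to 3.84 FPKM in the other libraries. The defining markers of later stages were low, with *Sox10* at 0.0731 to 0.373 FPKM and *Mbp* at no more than 6.47 FPKM in any library. The part of oligodendrocyte-lineage cells in the *Pou3f1* values was not tested.

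**Figure D5:**
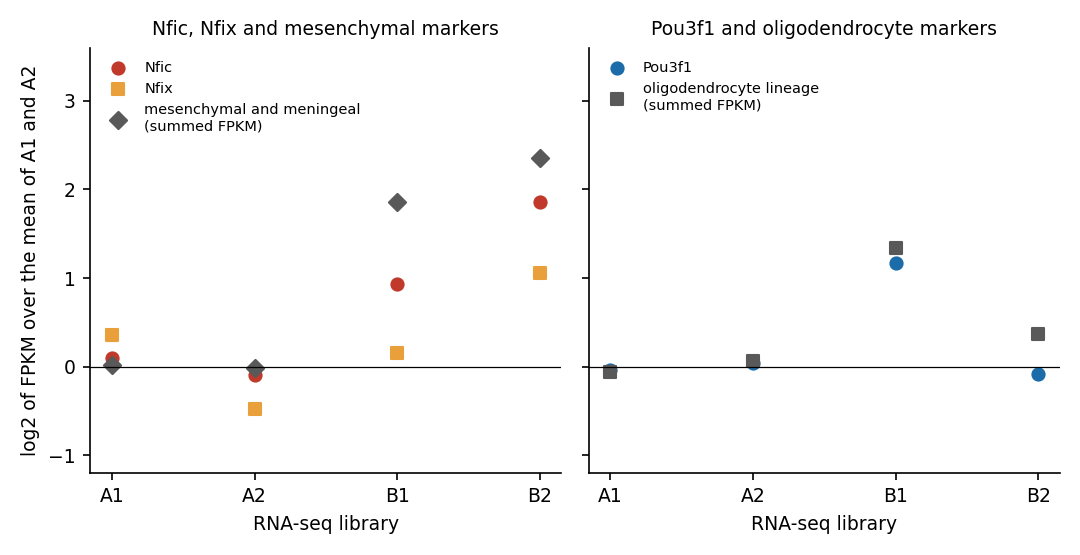
Level of *Nfic*, *Nfix* and the summed mesenchymal and meningeal markers (left) and of *Pou3f1* and the summed oligodendrocyte-lineage markers (right) in each RNA-seq library, as log2 of the FPKM over the mean of A1 and A2. The mesenchymal sum and *Nfic* are both highest in B2, and the oligodendrocyte sum and *Pou3f1* are both highest in B1.

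Partner proteins known to act with NFI or POU3F factors were measured from a list of 7 genes. All 7 had a mean of at least 10 FPKM and 0 differed between the replicates by the criteria used above, in either direction. *Sox2*, which binds neural enhancers together with POU3F proteins, was the most abundant at 478 ± 137 FPKM (SD, n = 2), and *Sox4* had 255 ± 40.8 FPKM and *Sox9* 117 ± 24.7 FPKM. *Sox9*, which acts with NFIA in gliogenesis, was therefore present at a higher level than *Nfia* in each library. The lowest was *Ezh2*, the Polycomb methyltransferase gene that NFIB is known to repress, at 29.3 ± 1.26. Their median B minus A difference was -0.32 on the log2(FPKM + 1) scale, against -0.03 over all names.

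Among 10 other POU genes in the tables, *Pou6f1* was the highest at 14.0 ± 5.50 FPKM (SD, n = 2), with 21.2 and 14.6 FPKM in A1 and A2 and 11.5 and 8.82 in B1 and B2. The ubiquitous octamer factor *Pou2f1* had 2.99 ± 0.453 FPKM, *Pou2f2* 0.473 ± 0.201 and *Pou5f1* 0.316 ± 0.0130. The lowest, *Pou4f2*, had 0.00898 FPKM. Of the 10 genes, 2 had a mean of at least 1 FPKM and 0 differed between replicates. The summed level of the 10 genes was 25.5, 19.1, 14.5 and 12.8 FPKM in A1, A2, B1 and B2, below that of *Pou3f2* in each library.

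Astroglial genes, several of which NFI factors are known to activate, were measured from a list of 12. There were 11 with a mean of at least 10 FPKM, of which 1 was higher in B and 2 were higher in A by the criteria. *Fabp7*, which holds sites for both factor families in its regulatory region, was the most abundant, and its difference of B minus A was -1.56 on the log2(FPKM + 1) scale. That of *S100b*, a calcium-binding protein gene, was -1.14, with 365 and 403 FPKM in A1 and A2 and 203 and 149 in B1 and B2. *Glul*, glutamine synthetase, was higher in B by 1.29, with 78.6 and 86.2 FPKM in A1 and A2 and 182 and 225 in B1 and B2. *Gfap*, the astrocyte filament gene, had 502, 460, 419 and 904 FPKM in A1, A2, B1 and B2 and was highest in B2, like *Nfix* and *Nfic*, but 4 of the 12 genes were higher in B2 than in B1. *Sparcl1* had 967 ± 177 FPKM and *Aldoc* 556 ± 175, while the lowest, the glutamate transporter gene *Slc1a2*, had 5.90 ± 0.411. The median difference of the list was 0.11.

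Genes with the most similar pattern over the 4 libraries were sought for each member among names with a mean of at least 10 FPKM. Likeness was the Euclidean distance between log2(FPKM + 1) values centred on the gene's own mean, and with 4 libraries that form technical pairs it is a description. The nearest were *Ppp6r3* (0.0112) and *Grhpr* (0.0173) for *Nfib*, *Luc7l3* (0.0255) and *Zfp131* (0.0476) for *Pou3f3*, *Zfp36l2* (0.0488) and *Wdfy3* (0.0653) for *Pou3f4*, and *Serinc2* (0.0616) and *Plekha1* (0.0832) for *Pou3f2*. For *Nfia* they were *Mdm4* (0.0616) and *Emid1* (0.0623), for *Pou3f1* *Nat14* (0.0970) and *Rdm1* (0.155), and for *Nfic* *Tpm4* (0.115) and *Slc19a1* (0.129). *Nfix* was farthest from any other name, with *Wnk4* at 0.318 and *Ppfibp1* at 0.345.

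Among the members themselves, *Nfib* and *Pou3f3* were the closest pair at a distance of 0.183, nearer than any pair within a family. The closest pair within the Pou3f family was *Pou3f3* and *Pou3f4* (0.379), and within the Nfi family *Nfia* and *Nfib* (0.629). *Nfic* and *Pou3f2* were the farthest apart at 2.24. *Pou3f3* was between 2.44 and 2.84 times as high as *Nfib* in each of the 4 libraries, a narrower range than that of *Nfix* to *Nfib*, which ran from 0.272 to 1.11.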

How the data were processed

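PolyA-selected RNA of 4 libraries was measured, 2 from each of 2 biological replicates of rat cortical neural progenitors, grouped by the sample labels. The 2 libraries of a replicate were taken as technical. Reads were aligned by the authors to rn6 with STAR, and the submitters' processing notes also name StringTie, HISAT and cutadapt, with no versions. According to their methods the authors obtained FPKM through Rsubread and DESeq2, whereas the deposited tables have the layout of StringTie. The FPKM and TPM values were scaled by the authors and used as deposited, and the deposited coverage signal, which is not scaled for depth, gave the read depth. Total read numbers were not used. The kit for the libraries is not stated to keep strand.

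From these values, FPKM was summed by gene name, and technical libraries were averaged within a replicate. With 1 condition no test was made, and SD over 2 replicates is a spread only. Promoter sequences were those of RefSeq on GRCr8.

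All 8 members are named. From the lists of partner, POU and astroglial genes, the 4 genes with the highest mean, the 1 with the lowest and any that differed between replicates were named. The value of 1 gene that this rule names is not reported here. Named by likeness were the 2 nearest genes of each member. Ribosomal RNA genes, the other names that moved like *Nfix* and markers of cell types were named after their values were seen. The members and lists were chosen with earlier results of these data known. The symbols of *Pou4f1*, *Sox1* and *Sox3* were not matched and have no value here. Python 3.11.15, numpy 2.4.6, pandas 2.3.3 and matplotlib 3.10.9 were used.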

Additional observations from a re-analysis of the deposited data

Results flagged for a closer look

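For 12 values, the distance of the most extreme library from its neighbour was set against the whole range of the 4 libraries, with Dixon's critical value as the limit. Independent samples would pass this limit by chance about 1 time in 20, and technical pairs are not independent. *Pou3f1* in B1 was one, at 8.44 FPKM against 3.53 to 3.84 FPKM in the others, with a gap of 0.936 of the range. The other was the depth of B2, at a coverage of 6.83 per FPKM against 22.7 to 24.4, with a gap of 0.906. Without B2 the mean of *Pou3f1* was 6.09 FPKM in place of 4.86, since B1 then stood for replicate B alone. No cause was tested for either value.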

How the results depend on the processing

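No paired analysis was possible because the RNA-seq libraries come from 1 condition with 2 biological replicates, so there is no other condition to pair them with, and the Start-seq samples of the same replicates were not analysed here. Of 124 alternatives for 30 results, 8 moved a value by more than 1 SD of the replicates or a count by more than 1.5 times, and 0 turned the direction of a counted gene. With 2 replicates, a mean cannot move by 1 SD when 1 is left out, and ratios and shares within a library are the same in TPM, so such alternatives say nothing about stability. The number of members differing between A and B was 2 at an absolute log2 difference of 0.58 (*Nfic* and *Pou3f2*), 0 with a minimum mean of 10 FPKM, which *Nfic* does not reach, and 0 without technical library B2, against 1. Neighbouring pairs that were apart numbered 3 without B2, against 1, and the cause was not tested. With 1 replicate left out the ratio of Nfi to Pou3f ranged from 0.521 to 0.812, the share of *Nfib* from 36.2% to 47.0%, the share of *Pou3f3* from 69.5% to 72.3% and the members with at least 10 FPKM from 6 to 7. Over all names, 894 differed with a pseudocount of 0.1, 1732 at 0.58 and 329 with a minimum mean of 10 FPKM, against 645. Without *Nfic* and *Nfix*, an alternative chosen after seeing the data like that of log2 of the mean FPKM, the ratio of Nfi to Pou3f was 0.465. For single members, the values that moved were the mean of *Nfia* without B2 (37.1 FPKM), its difference of B minus A with TPM (-0.12) and without B2 (-0.29), and that of *Pou3f1* without B2 (0.99).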
